A study of Arabidopsis thaliana with 30 samples.

Results

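The genes that set the identity of the floral meristem and of the floral organs were followed in 10 Arabidopsis lines: LFY (AT5G61850), AP1 (AT1G69120), CAL (AT1G26310), AP3 (AT3G54340), PI (AT5G20240), AG (AT4G18960), SEP1 (AT5G15800), SEP2 (AT3G02310) and SEP3 (AT1G24260). These 9 genes were taken from the count table by their gene identifiers, out of 33498 gene models. The list was chosen with earlier results of these data known. All 9 passed the filter on low counts, which left 29268 models to be tested.

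LFY encodes a plant-specific transcription factor that turns a shoot primordium into a flower, and it activates AP1 and CAL, which encode closely related MADS-domain factors that fix that fate. The floral organs are then specified by combinations of MADS-domain proteins: AP3 and PI (the B function) make petals and stamens, AG (the C function) makes stamens and carpels, and the SEP proteins (the E function) join the others in protein complexes. In a seedling these genes are mainly a readout of the switch to flowering, since flower primordia form at the shoot apex only after that switch, which the repressor FLC delays and the activators FT and SOC1 promote.

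RNA was sequenced from the whole aerial tissue of 15-day seedlings, with 3 libraries from each line. The lines were the accessions C24 and Ler (Landsberg erecta), their reciprocal F1 hybrids C24XLer and LerXC24, 3 F6 lines named hybrid mimics (HM-G, HM-S and HM-W) and 3 further F6 lines (Sml-D, Med-F and Med-E). All F6 lines descend from the C24 and Ler cross through recurrent selection, no line was treated, and all 10 were grown in 1 experiment under 16 h of light. Libraries of C24, Ler and the hybrids are labelled as biological replicates A, B and C, and those of F6 lines as siblings 1, 2 and 3. How many plants went into a library is not stated, and the p-values rest on the spread between these libraries, which may be technical in part.

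Levels are given in CPM, the usual unit of read counts scaled to a common library total (here TMM-adjusted), and changes as log2 differences ± SE from edgeR's quasi-likelihood test. A gene is called where the p-value, adjusted by Benjamini-Hochberg over all genes tested, is under 0.05. Gene counts summed to between 46822397 and 60757656 a library, and a member's count in a library ran from 19 (AP1 in HM-G) to 1673 (SEP3 in Sml-D). Markers of green tissue summed to between 26800 and 40200 CPM in every library, while all 3 root markers were also detected in every line, with sums of 208 to 258 CPM in C24 and 45.0 to 78.4 CPM in Ler. Whether the root signal has a part in any result below was not tested. In whole aerial tissue, fewer cells that express a gene and less RNA per cell cannot be told apart.

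Every member varied among the lines: 9 of 9 were called in the test of any difference among the 10 lines, beside 65.0% of all genes tested. SEP3 varied most, with line means 15.2-fold apart, followed by AP3 (7.57-fold) and AP1 (7.32-fold). SEP2 spanned 4.05-fold, SEP1 3.64-fold, AG 2.19-fold, LFY 1.89-fold, PI 1.78-fold and CAL 1.63-fold. CAL was the weakest call (adjusted p = 0.038 in edgeR's quasi-likelihood test), and it was not called by DESeq2's likelihood ratio test (adjusted p = 0.079) or after removal of single libraries of C24XLer, LerXC24, HM-W, Med-F or Sml-D. Per kilobase of exon, averaged over the 30 libraries, SEP3 and PI were the most abundant, at 4.98 and 4.68 CPM per kb. SEP2, AP3 and SEP1 followed at 1.67, 1.24 and 1.21 CPM per kb, and CAL, AP1, LFY and AG lay between 1.1 and 0.711 CPM per kb.

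**Figure D1:**
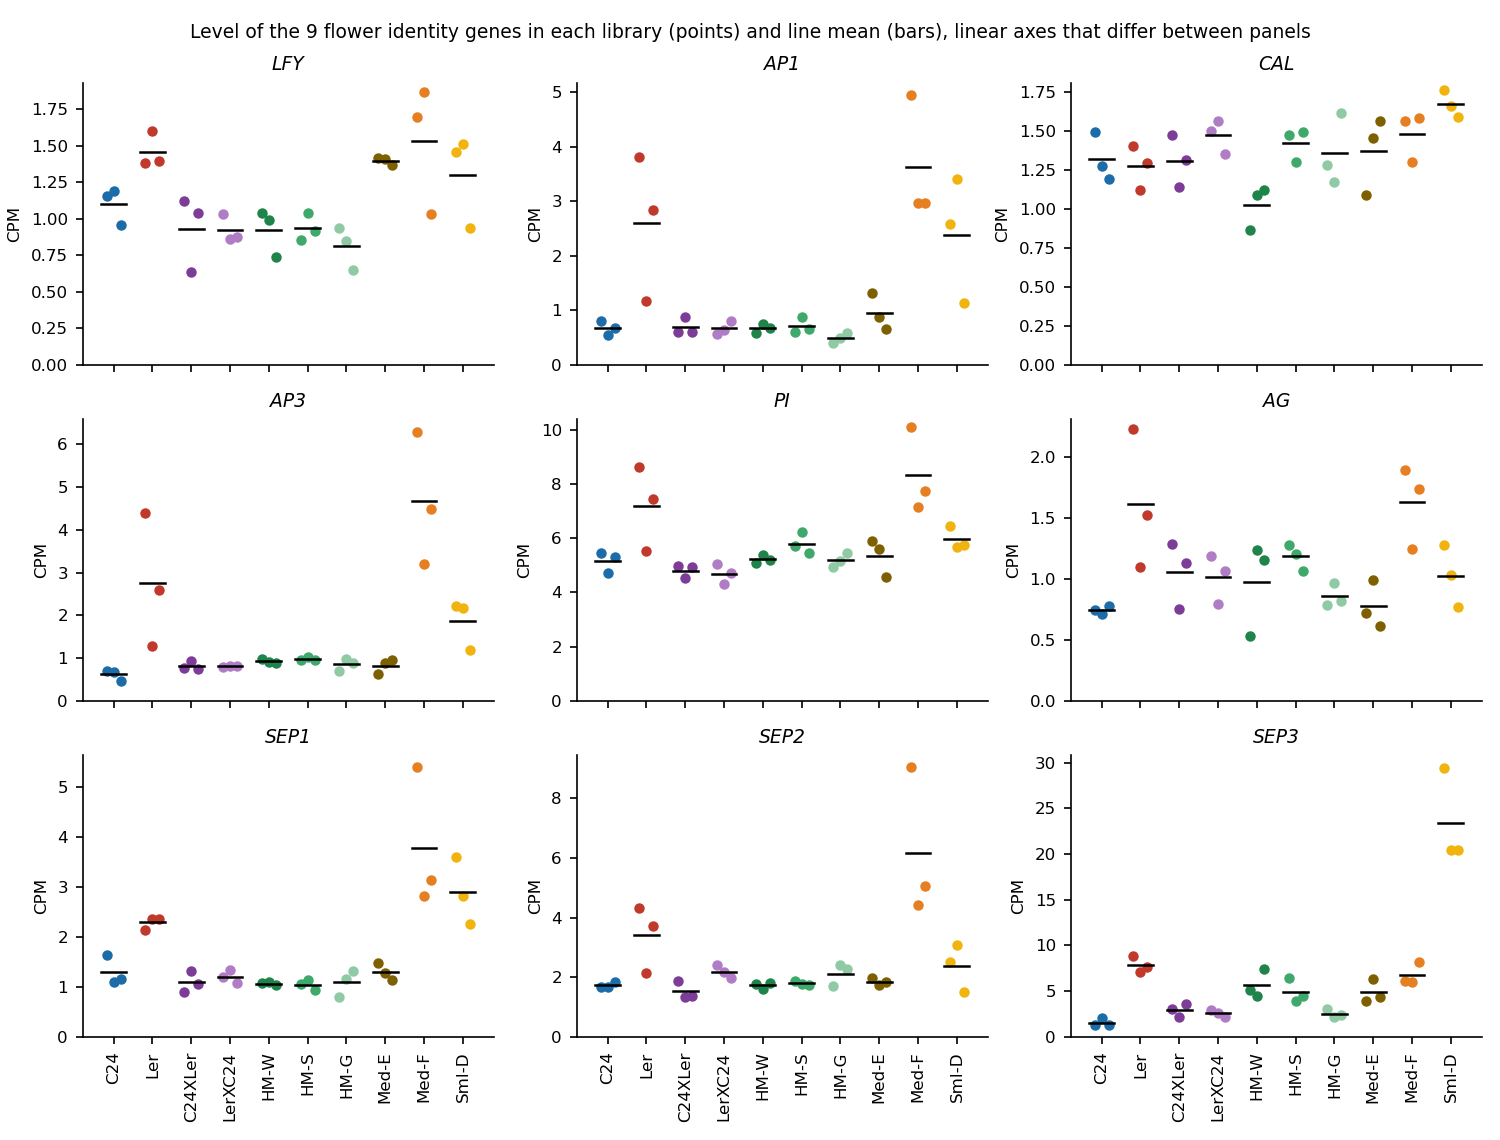
Level of each of the 9 genes in CPM (linear axes that start at 0 and differ between panels) in the 30 libraries, with points for single libraries and bars for the mean of each line. AP1, AP3, SEP1 and SEP2 have high libraries in Ler, Med-F and Sml-D, SEP3 stands highest in Sml-D (20.4 to 29.4 CPM), and CAL stays between 0.863 and 1.76 CPM.

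LFY lies on chromosome 5 at 24844248 to 24846989 on the plus strand (TAIR10.1 annotation, as for all positions here). Its level was 1.38, 1.60 and 1.40 CPM in Ler, 1.42, 1.41 and 1.37 CPM in Med-E, 1.70, 1.87 and 1.03 CPM in Med-F and 1.46, 1.51 and 0.938 CPM in Sml-D. In C24 it was 1.16, 1.19 and 0.961 CPM, and the means of both hybrids and the 3 mimics lay between 0.813 and 0.939 CPM. The libraries of Ler and Med-E were all above those of C24, the hybrids and the mimics, whereas Med-F and Sml-D each had 1 low library that overlapped them.

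AP1 lies on chromosome 1 at 25982294 to 25986349 on the minus strand. Its level was 4.94, 2.97 and 2.97 CPM in Med-F, 3.81, 1.17 and 2.84 CPM in Ler and 2.58, 3.40 and 1.13 CPM in Sml-D. The other 7 lines had means of 0.495 CPM (HM-G) to 0.946 CPM (Med-E). Of the 9 libraries of Med-F, Ler and Sml-D, 7 stood above all 21 libraries of the other lines, the exceptions being Ler B and Sml-D sibling 3, which fell below the highest Med-E library (1.31 CPM).

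CAL, the nearest relative of AP1, lies on the same chromosome at 9099994 to 9103644 on the minus strand and did not follow AP1. Its level was 1.49, 1.27 and 1.19 CPM in C24 and 1.40, 1.12 and 1.29 CPM in Ler, so the parents overlapped. The line means ran from 1.03 ± 0.14 CPM in HM-W to 1.67 ± 0.082 CPM in Sml-D (SD, n = 3), and neighbouring lines in that order overlapped apart from Sml-D, whose lowest library (1.59 CPM) lay just above the highest of Med-F (1.58 CPM). Reads shared between the genes were limited by their sequences: the longest run identical in the AP1 and CAL transcripts was 56 bases, and 0.56% of the 50-base stretches of AP1 occurred in CAL.

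The 250 bases before the annotated start of AP1 (chr1:25986350-25986599, minus strand) and of CAL (chr1:9103645-9103894, minus strand) are shown because these genes are close copies whose levels differed in how much they varied. They are the RefSeq sequence of TAIR10.1, from the Columbia accession, and not from C24 or Ler. Capitals mark CCANTG, a core sequence bound by LFY, searched for on both strands.
AP1: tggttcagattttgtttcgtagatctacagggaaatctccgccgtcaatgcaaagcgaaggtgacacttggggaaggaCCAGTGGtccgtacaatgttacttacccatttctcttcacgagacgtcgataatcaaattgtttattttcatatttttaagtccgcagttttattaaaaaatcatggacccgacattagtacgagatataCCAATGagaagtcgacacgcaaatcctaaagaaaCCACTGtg
CAL: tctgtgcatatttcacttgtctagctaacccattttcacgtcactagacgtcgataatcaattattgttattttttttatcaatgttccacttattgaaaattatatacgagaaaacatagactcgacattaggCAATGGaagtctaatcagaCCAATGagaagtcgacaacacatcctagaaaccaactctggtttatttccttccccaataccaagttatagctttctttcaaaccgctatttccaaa

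The AP1 window held 4 matches, at 172, 171, 42 and 8 bases before the start, with the pair at 172 and 171 overlapping on opposite strands. CAL held 2 matches, at 116 bases on the opposite strand and at 97 bases. SEP2 held 1 match, and the windows of the other 6 members held none of these letters. The motif was present in 3 of 9 member windows and in 20.8% of 26706 windows of the same length before other genes. The CArG box, the site of MADS-domain proteins, was searched for only in its strict form CCWWWWWWGG (W for A or T). It was in 0 of 9 member windows and in 2.55% of all windows. Looser forms and sites outside the windows were not searched for, so the count does not show that the genes lack the site. These matches are a description of the reference sequence and were not tested for binding.

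Among the B-function genes, AP3 (chromosome 3 at 20119140 to 20121314, minus strand) separated the lines most cleanly. Its level was 6.30, 3.21 and 4.49 CPM in Med-F, 4.40, 1.29 and 2.60 CPM in Ler and 2.21, 2.18 and 1.18 CPM in Sml-D. C24 was lowest, at 0.706, 0.674 and 0.470 CPM. All 9 libraries of Med-F, Ler and Sml-D were at or above 1.18 CPM and all 21 others at or below 1.02 CPM. Within each of those sets neighbouring lines overlapped, except that C24 lay below the lowest LerXC24 library (0.799 CPM).

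PI (chromosome 5 at 6828904 to 6831515, plus strand), the partner of AP3 in the B-function dimer, was more abundant and varied less. It was at 10.1, 7.15 and 7.75 CPM in Med-F and 8.63, 5.51 and 7.44 CPM in Ler, against 5.45, 4.72 and 5.29 CPM in C24. Sml-D, where AP3 was 3.00-fold above C24, had PI at 6.45, 5.68 and 5.74 CPM. These libraries were above every C24 library, as in 16.4% of all genes, and PI was not called (adjusted p = 0.33 in edgeR's test). The PI means of the other lines lay between 4.69 and 5.79 CPM.

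AG (chromosome 4 at 10382856 to 10388539, plus strand), the C-function gene, was at 2.23, 1.1 and 1.53 CPM in Ler and 1.90, 1.25 and 1.74 CPM in Med-F. C24 libraries held 0.745, 0.713 and 0.777 CPM and lay below those of both. The remaining lines had means of 0.777 CPM (Med-E) to 1.19 CPM (HM-S), and neighbouring lines in that order overlapped. Sml-D, at 1.28, 1.03 and 0.769 CPM, was among these.

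The 3 E-function genes had different orders of lines. SEP1 (chromosome 5 at 5151334 to 5154253, minus strand) was at 5.41, 2.83 and 3.14 CPM in Med-F, 3.60, 2.83 and 2.27 CPM in Sml-D and 2.15, 2.37 and 2.37 CPM in Ler. All 9 of these libraries were above the highest of the other 21 (1.65 CPM, in C24). SEP1 overlaps AT5G15790 on the opposite strand, and whether reads were counted by strand was not given, so its values are uncertain. AT5G15790 itself was at 11.2 CPM in C24, 12.4 CPM in Ler, 13.4 CPM in Med-F, 11.6 CPM in Sml-D and 14.0 CPM in HM-G. It was thus above C24 in Ler and Med-F, as SEP1 was, but highest in HM-G and lower in Sml-D than in Ler.

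SEP2 (chromosome 3 at 464279 to 467151, minus strand) was at 9.05, 4.42 and 5.06 CPM in Med-F, above every other library. Ler followed at 4.32, 2.15 and 3.73 CPM, while Sml-D at 2.50, 3.08 and 1.50 CPM overlapped with LerXC24 (2.42, 2.17 and 1.98 CPM) and HM-G (1.69, 2.41 and 2.26 CPM). The longest run identical in SEP1 and SEP2 transcripts was 32 bases.

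SEP3 (chromosome 1 at 8593536 to 8596123, minus strand) reached 29.4, 20.4 and 20.5 CPM in Sml-D, far above Ler (8.90, 7.05 and 7.65 CPM) and Med-F (6.15, 5.98 and 8.14 CPM). HM-W held 5.10, 4.45 and 7.45 CPM, HM-S 6.39, 3.94 and 4.46 CPM and Med-E 3.95, 6.32 and 4.42 CPM. These 3 lines overlapped with one another. The hybrids and HM-G had means of 2.54 to 2.96 CPM, and C24 was lowest at 1.27, 2.08 and 1.27 CPM.

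Between the parents, 7 of 9 members were lower in C24 than in Ler, beside 12.5% of all genes called lower and 25.8% called either way. The weight of the difference lay in SEP3 (−2.35 ± 0.26), AP3 (−2.15 ± 0.33) and AP1 (−1.95 ± 0.38), with AG at −1.12 ± 0.28, SEP2 at −0.97 ± 0.26, SEP1 at −0.82 ± 0.23 and PI at −0.48 ± 0.14 (log2, n = 3 libraries each, adjusted p up to 0.01 in edgeR's test). LFY differed by −0.40 ± 0.21 (adjusted p = 0.18) and CAL by 0.05 ± 0.16 (adjusted p = 0.85). All C24 libraries were below all Ler libraries at LFY, as in 20.0% of all genes. Without Ler A, the library highest in 7 members among the 3 of Ler, 4 members were called and PI, AG and SEP2 were not.

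The F1 hybrids lay near C24 for most members. Against C24, 1 of 9 members was called in C24XLer (5.35% of all genes called higher) and 0 of 9 in LerXC24 (13.3% of all genes), where 1 member had an unadjusted p under 0.05 and DESeq2 called 1. The member concerned was SEP3 in both: 3.06, 2.17 and 3.65 CPM in C24XLer (0.94 ± 0.26 above C24, adjusted p = 0.023 in edgeR's test) and 2.92, 2.61 and 2.19 CPM in LerXC24 (0.74 ± 0.26, adjusted p = 0.062). The call in C24XLer was lost without C24 A, C24 C or C24XLer C, and when only the compared lines were fitted (0 called). AP1, by contrast, was at 0.592, 0.876 and 0.590 CPM in C24XLer and 0.565, 0.627 and 0.805 CPM in LerXC24, within or close to the C24 range of 0.535 to 0.804 CPM.

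Against Ler, 6 of 9 members were lower in C24XLer (5.10% of all genes called lower) and 6 of 9 in LerXC24 (12.0%). AP1, AP3, PI, SEP1 and SEP3 were called in both, SEP2 in C24XLer (−1.16 ± 0.26) and LFY in LerXC24 (−0.66 ± 0.22). AP1 was 1.92 ± 0.38 and 1.96 ± 0.37 lower on the log2 scale and AP3 1.74 ± 0.32 and 1.76 ± 0.31 lower. Both comparisons share the Ler libraries. When only the compared lines were fitted, 3 members were called in C24XLer: AP1, SEP1 and SEP3.

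Measured against the mid-parent value (the mean of C24 and Ler in log units), 3 of 9 members fell in the F1 hybrids together, AP1 by 0.96 ± 0.28, SEP1 by 0.59 ± 0.16 and PI by 0.36 ± 0.10, beside 4.45% of all genes called lower and 11.5% either way (adjusted p = 0.028, 0.023 and 0.019 in edgeR's test). LFY differed by −0.45 ± 0.15 (adjusted p = 0.058) and AP3 by −0.67 ± 0.24 (adjusted p = 0.066). SEP1 alone was called when only the compared lines were fitted. None was called against the arithmetic mean of the parents, a setting in which 22 of all genes were called. The differences there were −1.26 ± 0.28 for AP1, −0.63 ± 0.14 for SEP1 and −0.37 ± 0.11 for PI, and 7 members had an unadjusted p under 0.05. With single libraries left out, the number of calls against the log mid-parent ran from 1 to 4. It was 1 without C24 A, Ler A or LerXC24 B. Leaving out C24 C, Ler B, LerXC24 C or any library of C24XLer changed 1 call. The reciprocal hybrids differed in 0 of 9 members (4.91% of all genes called, 0 members with an unadjusted p under 0.05, DESeq2 also 0), the largest difference being SEP2, lower in C24XLer by 0.52 ± 0.26 (adjusted p = 0.28).

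SEP3 was also the member that set HM-W and HM-S apart from C24. It was 1.88 ± 0.26 higher in HM-W and 1.67 ± 0.26 higher in HM-S on the log2 scale, or 3.67-fold and 3.19-fold (adjusted p = 1.2e-05 and 3.6e-05 in edgeR's test). No other member was called, so 1 of 9 was higher in each line, beside 8.78% and 12.8% of all genes. In HM-G 0 of 9 members were called against C24 (8.94% of all genes either way, 1 member with an unadjusted p under 0.05, DESeq2 also 0), and SEP3 stood 0.72 ± 0.26 higher (adjusted p = 0.098 in edgeR's test). Without C24 B, SEP3 was called in HM-G (adjusted p = 0.038) and in LerXC24 (adjusted p = 0.032). All HM-W, HM-S and HM-G libraries were above all C24 libraries at SEP3.

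Set against Ler, 6 of 9 members were lower in HM-W (12.8% of all genes called lower), 6 of 9 in HM-S (13.8%) and 7 of 9 in HM-G (10.1%). LFY, AP1, AP3 and SEP1 were called in all 3 mimics: AP1 by −2.39 ± 0.39 in HM-G, −1.95 ± 0.38 in HM-W and −1.88 ± 0.37 in HM-S. AP3 differed by −1.69 ± 0.32, −1.58 ± 0.31 and −1.49 ± 0.31 in the same order. SEP3 was called lower in HM-S (−0.67 ± 0.24, adjusted p = 0.034) and HM-G (−1.63 ± 0.25), while in HM-W its libraries overlapped with those of Ler. Under the 11 alternatives run for each line, the LFY call was lost in 3 for HM-W, 4 for HM-S and 2 for HM-G. The SEP3 call in HM-S was lost in 5 of 11. CAL was called in none of the 3 mimics, with adjusted p between 0.17 and 0.74.

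Med-E resembled HM-W and HM-S in this respect. Against C24, 1 of 9 members was higher (9.07% of all genes), again SEP3, by 1.67 ± 0.26 (adjusted p = 3.9e-05 in edgeR's test). Against Ler, AP1, AP3, PI, AG, SEP1 and SEP2 were lower, 6 of 9 beside 6.24% of all genes, with AP3 at −1.73 ± 0.32 and AP1 at −1.47 ± 0.36. Only 2 of these calls remained without Ler A, and 2 without Med-E sibling 3. LFY in Med-E was called neither against Ler (−0.06 ± 0.21, adjusted p = 0.90 in edgeR's test) nor against C24 (0.34 ± 0.22, adjusted p = 0.31). The parents were not called apart at LFY. CAL and SEP3 were also not called between Med-E and Ler (adjusted p = 0.73 and 0.059).

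Med-F had the highest level of most of the organ identity genes. Against C24, 7 of 9 members were higher (10.2% of all genes called higher, 19.4% either way), AP3 by 2.91 ± 0.32, AP1 by 2.43 ± 0.37, SEP3 by 2.13 ± 0.26, SEP2 by 1.83 ± 0.26, SEP1 by 1.54 ± 0.22, AG by 1.12 ± 0.28 and PI by 0.69 ± 0.14 (log2, adjusted p up to 0.0063 in edgeR's test). LFY and CAL were not called. These 7 were called under every alternative run for that comparison, with each library left out in turn included.

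Against Ler, Med-F was higher in 2 of 9 members, SEP1 by 0.72 ± 0.21 and SEP2 by 0.86 ± 0.24 (12.9% of all genes called higher, adjusted p = 0.015 and 0.012 in edgeR's test). AP3 differed by 0.76 ± 0.28 (adjusted p = 0.051), AP1 by 0.48 ± 0.33 (adjusted p = 0.31) and SEP3 by −0.22 ± 0.23 (adjusted p = 0.54). Both calls rested on Med-F sibling 1: without it SEP1 was 0.38 and SEP2 0.48 higher, and 0 members were called. SEP1 was also lost without Ler A and SEP2 without Ler B. Conversely, AP3 was called without Ler A (1.27, adjusted p = 0.0025 in edgeR's test) and without Med-F sibling 2 (0.97, adjusted p = 0.017).

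Sml-D differed from both parents most at SEP3. Against C24, 4 of 9 members were higher, beside 8.02% of all genes: SEP3 by 3.92 ± 0.27 (15.2-fold, adjusted p = 6.5e-11), AP1 by 1.82 ± 0.38, AP3 by 1.59 ± 0.33 and SEP1 by 1.16 ± 0.22 in edgeR's test. Against Ler, 1 of 9 members was higher, beside 6.17% of all genes, and this was SEP3, by 1.58 ± 0.23 (2.98-fold, adjusted p = 2.5e-05). AP1 differed from Ler by −0.13 ± 0.33 (adjusted p = 0.86) and AP3 by −0.56 ± 0.29 (adjusted p = 0.24). Without Ler B, AP3 (−0.91, adjusted p = 0.022) and PI (−0.43, adjusted p = 0.034) were called lower in Sml-D than in Ler as well. The SEP3 difference from Ler lay between 1.38 and 1.67 under all 11 alternatives and was called in each.

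**Figure D2:**
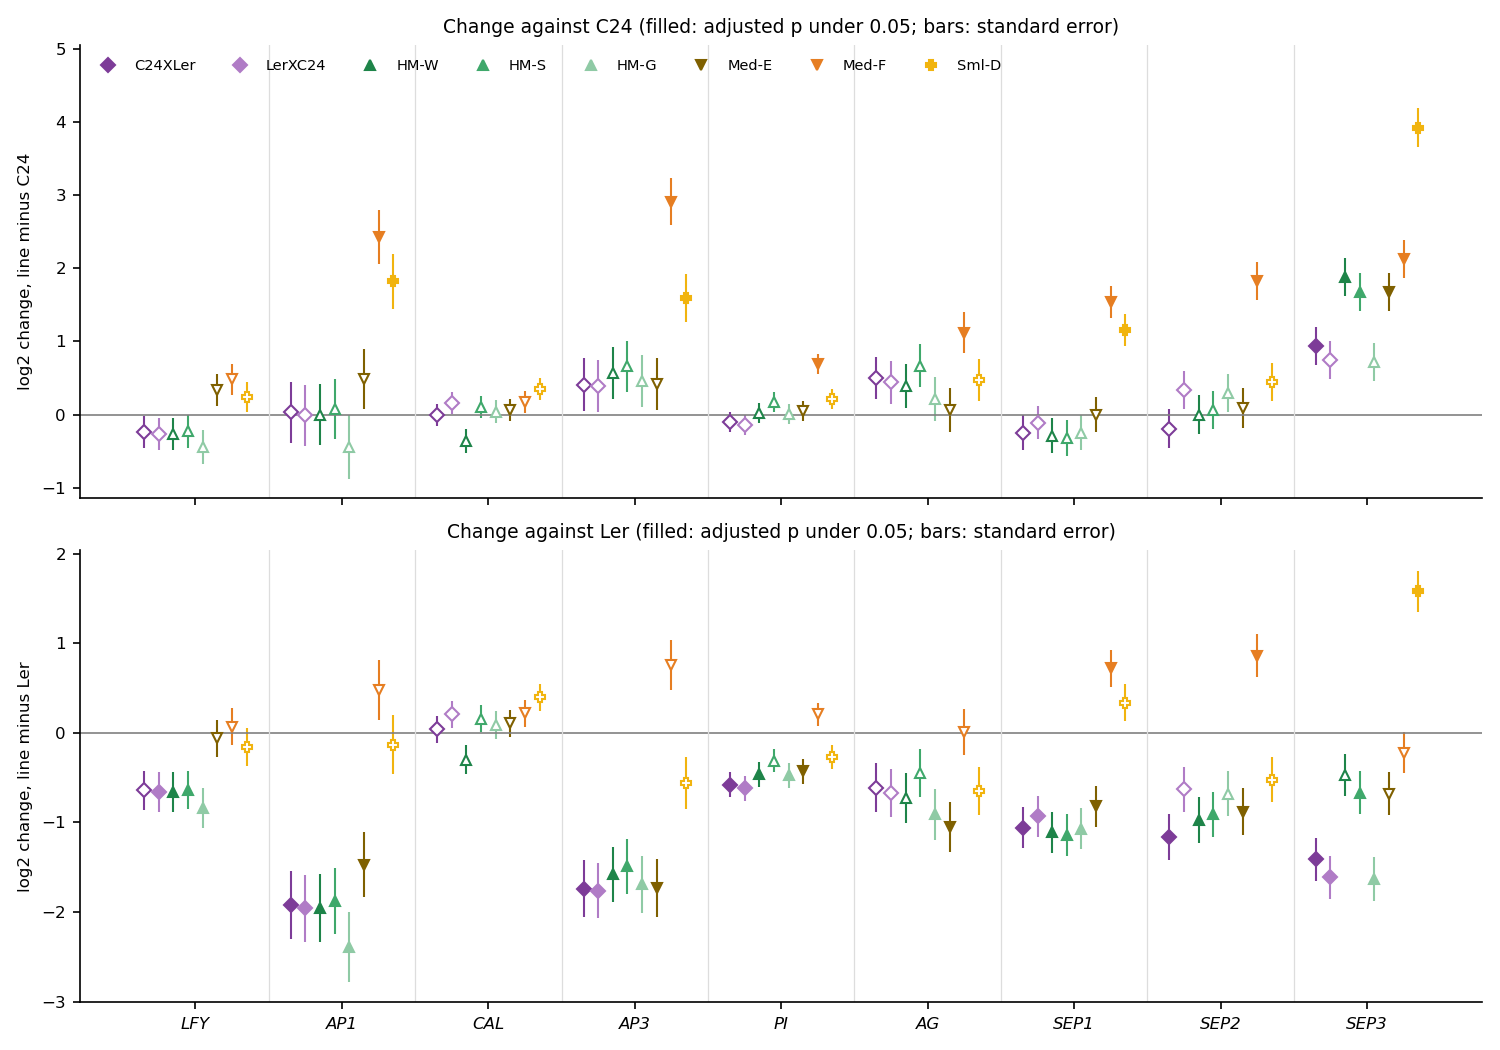
Log2 change of each gene in the 8 hybrid and F6 lines against C24 (top) and against Ler (bottom), with bars for the SE of the fit over 30 libraries and filled symbols for adjusted p under 0.05. Against C24, filled symbols are found at SEP3 in C24XLer, HM-W, HM-S, Med-E, Med-F and Sml-D and at other members in Med-F and Sml-D only, and against Ler SEP3 in Sml-D stands at 1.58.

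The 3 mimics and the 3 other F6 lines were compared with the line as the replicate. All 9 differences had a negative sign (lower in the mimics), with a median of −0.86 beside −0.01 for all genes. However, 0 of 9 were called (444 or 1.48% of all genes), while 4 had an unadjusted p under 0.05. DESeq2 called 3 members and 2947 of all genes. LFY differed by −0.66 ± 0.13 (adjusted p = 0.070), AP1 by −1.88 ± 0.47 (0.11), SEP1 by −1.32 ± 0.37 (0.13), AP3 by −1.41 ± 0.57 (0.24) and SEP3 by −1.42 ± 0.64 (0.28), all adjusted p from edgeR's test. Med-E lay with the mimics at AP1, AP3 and SEP1, so leaving it out widens the differences at these genes by construction. Without it AP1 differed by −2.26 and SEP1 by −1.64 (adjusted p = 0.035 and 0.026 in edgeR's test), which is no support for a difference between the classes. With any other single line left out, neither was called. Without Med-F, AG turned from −0.18 to 0.15, and AP3 was at −0.56, SEP2 at −0.15 (from −0.86) and PI at −0.07 (from −0.27). The SEP3 difference was −0.41 without Sml-D. Taking all 18 siblings as independent gave 8 calls among the members and 12675 among all genes, which counts siblings of a line as replicates of the class.

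SEP3 and AP3 thus ranked the lines differently. The number of SEP3 counts per AP3 count was 9.36, 13.3 and 17.3 (lowest, median and highest library) in Sml-D, 2.02, 2.95 and 5.49 in Ler and 0.975, 1.81 and 1.86 in Med-F. In C24 it was 1.81, 2.70 and 3.09, close to Ler, although both genes were lower there. Med-E (4.69 to 7.07), HM-W (4.91 to 8.53) and HM-S (3.85 to 6.70) lay above C24 throughout. The ratios of Sml-D did not overlap with those of any other line, and those of Med-F overlapped with C24 alone. Over the 10 line means, log2 SEP3 had r = 0.653 with AP3 and 0.377 with SEP2, whereas AP1 and SEP1 had 0.973 and AP3 and PI 0.943. These points share the libraries and the scaling, and they are given as a description.

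**Figure D3:**
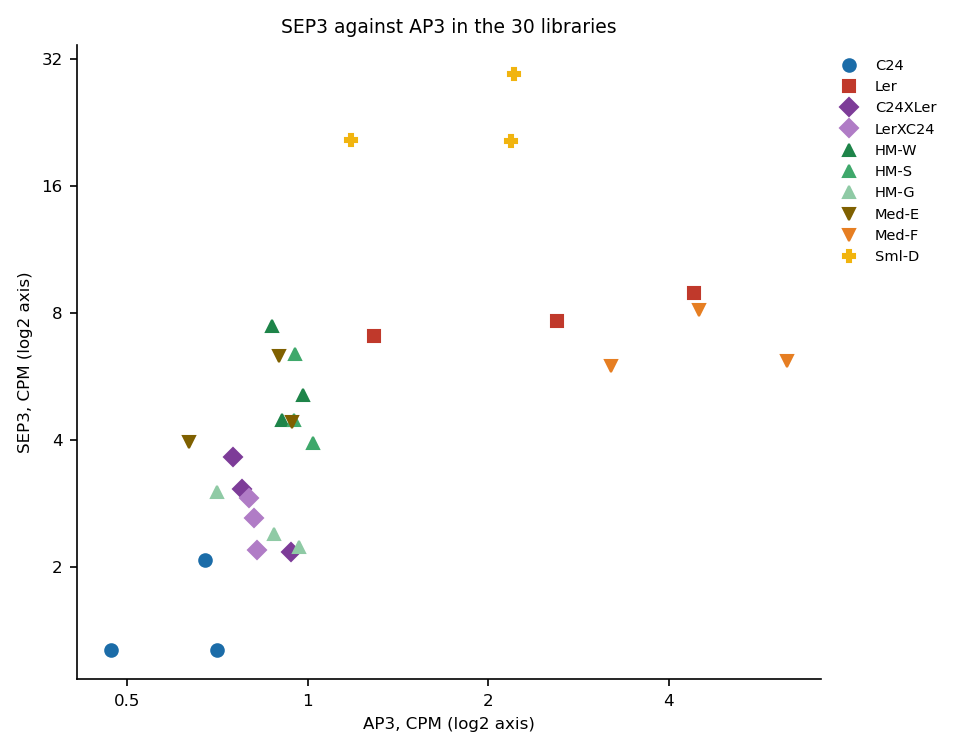
SEP3 against AP3 in CPM (both axes log2) in the 30 libraries, with 1 point for each library and a symbol and colour for each line. Sml-D libraries lie highest at SEP3 (20.4 to 29.4 CPM) with AP3 at 1.18 to 2.21 CPM, whereas Med-F reaches 6.30 CPM of AP3 with SEP3 at 5.98 to 8.14 CPM.

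Libraries of the lines with high levels spread widely, and several members moved together within a line. Ler B was the lowest of the Ler libraries in 7 of 9 members (AP1, CAL, AP3, PI, AG, SEP2 and SEP3) and the highest in LFY, and for SEP1 it shared the top with Ler C to the digits shown. Med-F sibling 1 was the highest of its line in 6 members and Sml-D sibling 3 the lowest of its line in 7. After removing the line means, log2 levels over the 30 libraries had r = 0.739 between AP3 and SEP2, 0.712 between AP1 and SEP2, 0.690 between AP1 and PI and 0.688 between AP1 and AP3. LFY had lower values, with r between −0.112 and 0.230 with the others. SEP3 had r of 0.410 with AG and 0.402 with CAL, and between −0.252 (SEP1) and 0.160 (AP3) with the remaining members. The labels give 1 age for all seedlings, and differences in stage between them were not tested.

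Upstream of the members, FLC, the MADS-domain repressor of flowering, ran opposite to them. Its mean was 93.9 CPM in C24, 49.2 and 49.5 CPM in C24XLer and LerXC24, 24.9, 27.7 and 34.0 CPM in HM-G, HM-S and HM-W and 53.0 CPM in Med-E. It was far lower in Med-F (3.78 CPM), Sml-D (3.70 CPM) and Ler (0.899 CPM), the same 3 lines that held the highest AP1, AP3 and SEP1. Over the 10 line means r with FLC was −0.882 for AP3, −0.859 for AP1, −0.739 for SEP3 and −0.261 for CAL. The 7 lines with more FLC did not order by it: HM-G had the least FLC of these and the lowest AP1 of all lines.

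SOC1, a floral integrator that FLC represses, was at 104 CPM in Ler, 100 CPM in Med-F and 74.8 CPM in Sml-D, 44.5 to 49.3 CPM in the mimics, 32.6 CPM in Med-E, 20.9 and 29.7 CPM in the hybrids and 13.3 CPM in C24. The mimics thus had 3.35-fold to 3.72-fold more SOC1 than C24 (called in all 3), with AP1 and AP3 not called. FUL, a MADS-domain relative of AP1, was at 8.53 CPM in Ler, 9.39 CPM in Med-F, 9.30 CPM in Sml-D, 5.08 CPM in Med-E and 1.79 to 3.70 CPM elsewhere. Its r with SEP3 over the line means was 0.834 and with AP1 0.877. FT, the mobile flowering signal, was low throughout, at 0.293 to 0.798 CPM. SPL4, an age-pathway activator, was at 10.4 ± 3.8 CPM in Med-F against 1.33 ± 0.56 CPM in C24 and 4.92 ± 1.2 CPM in Ler (SD, n = 3).

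**Figure D4:**
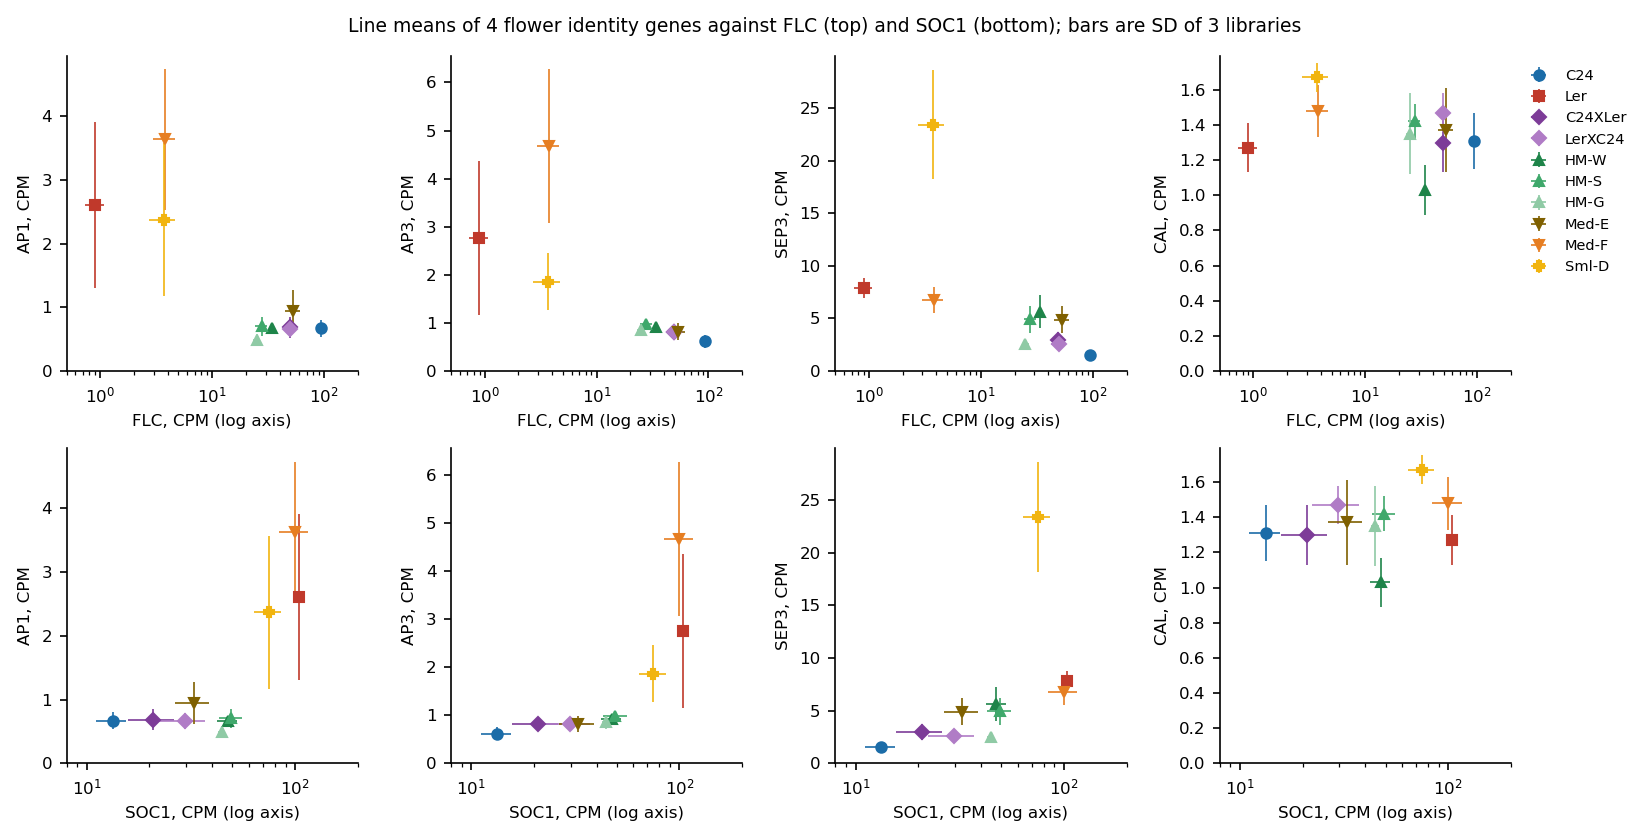
Line means in CPM of AP1, AP3, SEP3 and CAL (linear axes from 0) against FLC (top row) and SOC1 (bottom row, both on log axes), with bars for the SD of 3 libraries. Ler, Med-F and Sml-D combine low FLC (0.899 to 3.78 CPM) and high SOC1 (74.8 to 104 CPM) with the highest AP1 and AP3, and CAL shows little range.

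Of 17 upstream activators listed, 4 were lower and 0 higher in C24 than in Ler, and of 18 repressors 7 were higher and 1 lower, beside 12.5% of all genes called lower and 13.3% called higher. In the F1 hybrids against the log mid-parent, 2 activators were lower and 5 repressors higher, beside 4.45% and 7.10% of all genes. Against the arithmetic mean of the parents these counts were 2 and 1. FUL fell by 0.91 ± 0.14 against the log mid-parent and by 1.27 ± 0.14 against the arithmetic mean (adjusted p = 0.036 in edgeR's test). FLC depended on the kind of mean: the hybrids lay 2.43 ± 0.13 above the log mid-parent but 0.07 ± 0.10 from the arithmetic one (adjusted p = 0.77), at 49.4 CPM beside a plain mean of 47.4 CPM for the parents. FLM, an FLC relative, was higher by 1.84 ± 0.41 and 1.72 ± 0.10 and called in both. AP2, which represses flowering and AG, was 0.61 ± 0.10 and 0.62 ± 0.11 higher, called against the log mid-parent and not against the arithmetic one (adjusted p = 0.068). In Med-F against C24, 8 activators were higher and 0 lower (10.2% of all genes higher), and in Sml-D against C24 6 were higher and 0 lower (8.02%). Against Ler, 3 activators were higher in Med-F (12.9%) and 0 were called in Sml-D (4 had an unadjusted p under 0.05, and 12.5% of all genes were called either way). UFO, the coactivator through which LFY turns on AP3, was at 0.476 CPM in Ler, 0.432 CPM in Med-F, 0.405 CPM in Sml-D and 0.228 to 0.315 CPM elsewhere, lower in C24 than in Ler by 0.88 ± 0.29 (adjusted p = 0.026 in edgeR's test). AGL24 and SVP, MADS-domain genes with opposite roles in flowering time, spanned 14.5 to 19.7 CPM and 62.4 to 97.0 CPM, and TFL1, which keeps shoot identity, 0.751 to 1.84 CPM.

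SEP4, the remaining SEP gene and not a member here, did not follow the other 3. It was at 16.4 CPM in C24, 15.1 CPM in HM-W and 13.4 CPM in HM-S, at 9.96 and 9.70 CPM in C24XLer and LerXC24 and at 4.62 to 5.51 CPM in Ler, HM-G, Med-E, Med-F and Sml-D. C24 was 1.82 ± 0.12 above Ler (log2, adjusted p = 1.1e-11 in edgeR's test), the opposite direction to SEP1, SEP2 and SEP3. Of 18 genes of later flower development, 3 were higher and 1 lower in C24 than in Ler (13.3% and 12.5% of all genes), and 3 were higher and 1 lower in Med-F than in Ler (12.9% and 10.9%), so the share called higher was near that of all genes.

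Shoot meristem genes were expressed in all lines and summed to 57.8 to 72.4 CPM in HM-G, 69.5 to 86.4 CPM in C24, 95.3 to 104 CPM in Ler, 82.0 to 94.9 CPM in Med-F, 94.5 to 108 CPM in Sml-D and 94.7 to 125 CPM in Med-E. STM, which maintains the meristem, was at 8.95 CPM in Sml-D, 8.70 CPM in Med-F and 7.29 CPM in Ler and between 2.80 and 5.46 CPM in the other lines. WUS, which marks the organizing centre, was at 0.594 CPM in Ler and 0.290 to 0.401 CPM elsewhere. CLV1, a receptor kinase gene, made up most of the sum, with line means of 51.4 CPM (HM-G) to 86.6 CPM (Med-E). Without it the other 6 genes summed to 29.4 to 37.7 CPM in Med-F, 29.7 to 36.9 CPM in Sml-D and 24.5 to 30.4 CPM in Ler, against line means of 14.6 CPM (HM-G) to 22.3 CPM (HM-W) elsewhere. The 3 lines high in AP1 and AP3 thus had the highest means in this sum, but not in the sum with CLV1. CLV1 was at 56.0 CPM in Med-F, 58.5 CPM in C24 and 72.2 CPM in Ler. Of the 7 genes, 1 was called higher in Med-F than in C24 (10.2% of all genes) and 0 in Sml-D than in C24 (8.02%, 1 gene with an unadjusted p under 0.05). Over the 10 line means STM had r = 0.815 with AP1, 0.800 with SEP1, 0.795 with LFY and 0.783 with PI. It was 0.740 with SEP3, 0.714 with AP3, 0.576 with SEP2, 0.376 with AG and 0.150 with CAL. The part of these genes in the members' differences was not tested.

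The levels of clock genes differed between lines too, and the labels give no harvest time. An index of 5 evening genes minus 6 morning genes (mean log2 CPM) had line means from −1.82 in Med-E, −1.61 in Sml-D and −1.38 in Ler to 0.20 in LerXC24. With the index in the fit, the calls against Ler ended in HM-W and HM-S (0 each) and all but SEP3 in LerXC24. AP1 moved from −1.95 to −1.88 in HM-W, from −1.88 to −1.82 in HM-S and from −1.96 to −1.87 in LerXC24. LFY moved more, from −0.66 to −0.45, from −0.64 to −0.44 and from −0.66 to −0.42 in the same order. In LerXC24, SEP1 moved from −0.93 to −0.69 and AP3 from −1.76 to −1.52. Between C24 and Ler, PI and SEP1 were no longer called (adjusted p = 0.085 and 0.094 in edgeR's test). In HM-G 4 calls against Ler were kept, in Med-F 1 (SEP1), in Sml-D against C24 1 (SEP3), and in the F1 hybrids against the mean of the parents 0. Calls over all genes fell in that fit as well. Against Ler they went from 7554 to 1534 in HM-W, 8182 to 1624 in HM-S and 7836 to 708 in LerXC24. In HM-G they went from 6137 to 2606 and in Med-F from 6970 to 3420. For Sml-D against C24 they went from 4948 to 1557, and for the F1 hybrids from 3378 to 928.

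The genes outside the 9 whose pattern over the 10 lines was most like the mean of the members were ranked by Pearson's r among 23458 genes with a mean of at least 1 CPM. CYP706A3, a cytochrome P450 gene, led with r = 0.980 and also ranked 1 over the 30 libraries (r = 0.932). DGD2, a galactolipid synthase gene (0.969), AT4G01575 (0.959), REM1, a gene of the B3 family (0.957), and AT5G27760 (0.955) followed. The next 5 were AT4G17430, AT5G02080, AT1G73130, SNRNP-G and CCT, with r from 0.949 to 0.941. Of these 10 genes, 1 was among the 10 most alike over the 30 libraries.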

How the data were processed

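The deposited gene table holds raw counts per gene model in 30 libraries, whole numbers that were not normalized, as the file headers show. A deposited table of total reads gave 41600826 to 53397900 reads a library as counts. Gene counts exceeded these reads by 9.22% to 15.0% in all 30 libraries, so a count need not be 1 read of that table, and what it stands for was not given. FastQC, DESeq and the TAIR10 build are named, without versions, per the submitters' processing notes. Which aligner and counter were run, and whether strand was used, was not given. Of 33498 models, 1101 were at 0 in all libraries and 32742 matched TAIR10.1 annotation, which gave names, positions and exon lengths.

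The members and gene lists were chosen with earlier results of these data known. Genes were kept by filterByExpr (minimum count 10), scaled by TMM (factors 0.943 to 1.08) and tested in 1 edgeR 4.0.16 quasi-likelihood fit over all 30 libraries (R 4.3.3) with a coefficient for each line. The common dispersion was 0.021. For mimics against other F6 lines, sibling counts were summed for each line and 29951 genes were tested. Adjusted p-values are Benjamini-Hochberg over all genes tested. On simulated counts for C24 against Ler (28142 genes, 196 changed), 91.8% of changed and 0.0465% of unchanged genes were called. Alternatives were RLE scaling, no filter, DESeq2 1.42.0, only the compared lines, each library or line left out, a replicate block, the clock index as a covariate, the arithmetic mean of the parents, and siblings as replicates.

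All 9 members were named. From the lists, FLC, SOC1, FUL, FT, AGL24, SVP, TFL1, AP2, SEP4, UFO, STM and WUS were named, with others drawn from the 2 largest called rises and falls in a comparison. Same-letter or same-number libraries hardly deviated together. Among parents and hybrids, same-letter pairs had a median r of 0.05 (6 of 18 over 0.1) and other pairs −0.04 (5 of 36). Among F6 lines, same-number pairs had −0.01 (3 of 45 over 0.1) and other pairs 0.01 (10 of 90). Of 24 barcodes in the labels, 6 occur in 2 libraries, always a parent and Sml-D or Med-F. These libraries were kept as separate samples. Whether libraries with the same barcode were sequenced apart was not given. Its part in the differences of Sml-D and Med-F from the parents was not tested.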

Additional observations from a re-analysis of the deposited data

How the results depend on the processing

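Of 189 log2 changes and F tests of members, 74 were called, and none of these reversed under any alternative. All 74 kept their call under RLE scaling and with no filter, and 73 under DESeq2, the exception being CAL among all lines. With the clock index in the fit 30 calls were lost, with only the compared lines 14, against the arithmetic mean of the parents 3 of 3. With the replicate block, 1 of 23 was lost, AP1 in the F1 hybrids against the mean of the parents (−0.91, adjusted p = 0.057 from edgeR). The letters and numbers gave little sign of pairing the samples, with a median r of 0.05 among parents and hybrids and −0.01 among F6 lines. Leaving out 1 library lost 68 of 678 calls.

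Counts of members called moved as follows. With the clock index they were 0 (F1 against mid-parent, in place of 3), 1 (LerXC24 against Ler, 6), 0 (HM-W against Ler, 6), 0 (HM-S against Ler, 6), 4 (HM-G against Ler, 7), 1 (Med-F against Ler, 2) and 1 (Sml-D against C24, 4). Calls over all genes also fell in these comparisons, to between 708 (LerXC24 against Ler) and 3420 (Med-F against Ler). With only the compared lines they were 1 (F1 against mid-parent), 0 (C24XLer against C24, in place of 1), 3 (C24XLer against Ler), 2 (HM-S against C24, in place of 1) and 0 (Med-F against Ler). Over all genes that setting called 1845, 714, 1418, 5079 and 4610 in the same order. DESeq2 called 1 in LerXC24 against C24 and 3 in mimics against other F6 lines, both in place of 0 (4386 and 2947 of all genes). With all 18 siblings as replicates the latter count was 8, also 8 with the replicate block (12675 and 12320 of all genes). The arithmetic mid-parent gave 0 in place of 3. The cause of these changes was not tested.

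With each library or line left out, the counts ran from 4 to 7 for C24 against Ler, 1 to 4 for F1 against mid-parent, 0 to 0 for the reciprocal hybrids, 0 to 1 for C24XLer, LerXC24 and HM-G against C24, 1 to 1 for HM-W, HM-S and Med-E against C24, 7 to 8 for Med-F and 4 to 4 for Sml-D against C24. Against Ler they ran from 5 to 7 for C24XLer and LerXC24, 4 to 7 for HM-W, 4 to 6 for HM-S, 5 to 8 for HM-G, 2 to 6 for Med-E, 0 to 3 for Med-F and 1 to 3 for Sml-D. They ran from 8 to 9 for any difference among lines and 0 to 2 for mimics against other F6 lines. CAL in C24 against Ler turned from 0.05 to −0.05 without C24 A and −0.03 without Ler B (range −0.05 to 0.13), and AP1 in Sml-D against Ler from −0.13 to 0.24 without Ler A and 0.20 without Sml-D sibling 3 (range −0.49 to 0.24), none of these reversals called. In mimics against other F6 lines AG turned from −0.18 to 0.15 without Med-F, not called. The 3 libraries a line and counts as low as 19 limit what small differences could be seen.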

Other observations

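CRC, a gene of carpel and nectary development, was named after its values were seen. Like SEP1, it overlaps a counted gene on the opposite strand (AT1G69170), so its values are uncertain. CRC was at 2.65 ± 1.8 CPM in Med-F, 0.920 ± 0.47 CPM in Ler and 0.392 ± 0.090 CPM in C24 (SD, n = 3), and its means in the other lines lay between 0.399 and 0.682 CPM. The difference between Med-F and Ler was 1.53 ± 0.40 on the log2 scale (adjusted p = 0.0076 in edgeR's quasi-likelihood test), and the highest Med-F library held 4.70 CPM. AGL6, a MADS-domain relative of the SEP genes also named after its values were seen, was at 1.42 CPM in Med-F and 0.364 to 0.866 CPM in the other lines, 1.48 ± 0.33 higher in Med-F than in C24 (adjusted p = 0.0021).

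FLM differed widely between siblings of 1 line, from 2.10 to 33.7 CPM in HM-S and from 2.19 to 17.4 CPM in HM-G, whereas Med-F siblings held 31.5 to 42.7 CPM and Med-E siblings 1.29 to 1.67 CPM. Over the same HM-S siblings AP1 stayed between 0.591 and 0.874 CPM.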
